A study of Homo sapiens with 16 samples.

Results

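CENPW, CENPT, CENPS, CENPX, CENPA, CENPC, CENPN, CENPK, CENPI and CENPH encode constitutive proteins of the human centromere, and their mRNA was followed in 293T cells, a human embryonic kidney line, after depletion of SETD2 or hnRNP L. The members were selected by gene name, 10 of the 58884 genes in the table, and all 10 were above the filter on low values. CENPW was chosen because it had fallen upon SETD2 depletion and not upon hnRNP L depletion in these same libraries, so its own values are given as a description and without a test. The other 9 genes, called partners here, were named for their place in the inner kinetochore, and their rows of the fit are reported. SETD2 is the methyltransferase that trimethylates histone H3 at lysine K36, and hnRNP L is an RNA-binding protein that regulates splicing. Wild-type 293T cells were transfected with scramble siRNA or depleted of either protein by siRNA, and RNA-seq was performed 72 h later on 2 libraries per siRNA. By their labels the SETD2-depleted libraries are replicates 2 and 3, and the rest are replicates 1 and 2. Every group was transfected, so each depletion is read against cells that carry an unrelated siRNA and not against untreated cells. The depletions are partial and transient. The words upon depletion name the siRNA groups below, and effects of an siRNA on transcripts other than its target were not tested.

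The kinetochore is the protein assembly that joins a chromosome to spindle microtubules during mitosis. Its inner layer sits on nucleosomes that hold the histone variant CENP-A and comprises the constitutive centromere-associated network, in which CENP-W and CENP-T pair through histone folds and join CENP-S and CENP-X, CENP-C and CENP-N contact the CENP-A nucleosome, and CENP-H, CENP-I and CENP-K belong to a further subcomplex. CENP-T and CENP-C each reach out to the microtubule-binding outer layer, and CENP-S and CENP-X also serve the Fanconi anaemia pathway of DNA crosslink repair together with the helicase FANCM. Many genes of this kind are transcribed in a cell cycle-dependent manner, through promoter elements that include the CHR, a cell cycle genes homology region, and the CCAAT box.

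CENPW (ENSG00000203760) is a protein-coding gene on the plus strand of chromosome 6, at chr6:126340115-126348875 of hg38, with 3 annotated transcripts and 854 bases of exon in GENCODE release 44. The sequence around its start is printed because CENPW was the member whose level differed between siRNAs. RefSeq promoter sequences (GRCh38.p14) held the bases around each annotated start and were found for 9 of the 10 members. CENPH had no entry. The window below is the CENPW promoter at chr6:126339865-126340142, plus strand, with the CCAAT boxes, the cAMP response element TGACGTCA and the CHR letters in capitals.
CENPW promoter: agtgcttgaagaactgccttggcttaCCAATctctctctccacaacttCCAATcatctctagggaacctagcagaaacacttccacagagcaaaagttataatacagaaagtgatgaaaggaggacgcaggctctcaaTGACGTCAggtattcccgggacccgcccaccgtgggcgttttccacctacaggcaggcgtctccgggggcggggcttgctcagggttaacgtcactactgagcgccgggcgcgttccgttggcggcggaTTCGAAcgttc

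The motif letters were chosen after the sequence and the values had been seen, and both strands were searched. The CHR letters, TTTGAA or TTCGAA, occurred in 4 of the 9 member promoters and in 16.4% of all 35116 RefSeq promoters of the same length. These sites lay at chr6:126340120-126340149 for CENPW, chr2:26786026-26786055 for CENPA and chr16:81007205-81007234 for CENPN, all on the plus strand, and at chr4:67545576-67545605 on the minus strand for CENPC, where the letters run on the opposite strand and read TTCAAA. Counted from the annotated start, the first base of the letters lay at 17 (CENPW), 3 (CENPN), -18 (CENPA) and -90 (CENPC), where positive offsets lie after the start. The capitals mark the CHR letters, and each flank is 12 bases long.
CENPW: gttggcggcggaTTCGAAcgttcggactga
CENPA: cggagcgagcgaTTTGAAcgcgagcggcgc
CENPN: gcaattggtggcTTTGAAggcgcggcgagc
CENPC: tgtgtctccgggTTCAAAcccaggcacagg

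The letters CCAAT were present in 6 member promoters, those of CENPW, CENPX, CENPA, CENPC, CENPN and CENPK, and in 34.6% of all promoters. TGACGTCA was present in the CENPW promoter alone among the members and in 1.85% of all promoters. A match of letters describes the sequence and is not a measured binding site. Whether these letters have a part in the level of any member was not tested.

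CENPW was at 70.2 and 75.1 TPM, a unit of transcript abundance scaled for transcript length and library total, with scramble siRNA. It was at 36.11 and 36.02 TPM in the SETD2-depleted libraries. With hnRNP L siRNA it was at 77.9 and 71.8 TPM. Both SETD2 siRNA libraries lay below the other 4 libraries, whereas the hnRNP L siRNA libraries lay within or just above the range of the scramble libraries. The group means were 72.6 ± 3.46, 36.1 ± 0.0636 and 74.8 ± 4.36 TPM (SD, n = 2), so 49.7% of the scramble level was left upon SETD2 depletion and 103.0% upon hnRNP L depletion. On the log2(TPM + 0.5) scale, the scale of all differences below, CENPW fell by 0.999 with SETD2 siRNA and differed from scramble by 0.04 with hnRNP L siRNA. Because these are bulk libraries, fewer cells that express a gene and less of its RNA per cell cannot be told apart. The labels and the extent of depletion could be checked on the targeted mRNAs. SETD2 mRNA was at 13.4 and 11.7 TPM in the scramble libraries, 4.24 and 4.91 TPM upon its own depletion and 10.8 and 10.2 TPM in the hnRNP L-depleted libraries, which left 36.5% of the scramble level in the SETD2 siRNA libraries. HNRNPL mRNA was at 341.0 and 457.2 TPM in the scramble libraries, 394.7 and 413.4 TPM in the SETD2-depleted libraries and 25.04 and 28.81 TPM upon its own depletion, 6.75% of the scramble level. Each targeted mRNA was lowest in both libraries labelled with its own siRNA, and the call of SETD2 upon its own depletion was lost with no filter and without scramble siRNA replicate 1 or SETD2 siRNA replicate 2.

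Groups were compared with limma over the 16300 genes whose mean reached 0.5 TPM, with Benjamini-Hochberg adjustment over all of them, and a gene was called changed where its adjusted p was under 0.05 and its fold change exceeded 1.5. By this rule 0.104% of the tested genes were called with SETD2 siRNA, and an unadjusted limma p under 0.05 was reached by 13.1%. Of the 9 partners, 0 were called and 0 had an unadjusted limma p under 0.05. Their log2 fold changes lay between -0.21 and 0.18, with 5 fitted lower and 4 fitted higher. Their median was -0.02, against 0.01 over all tested genes. The standard errors ranged from 0.0979 to 0.158, and the 95% intervals of the partners reached from -0.49 (CENPC, 0.711-fold) to 0.47 (CENPS). A fall past the fold cut-off of 1.5 lay outside the interval of each of the 9 partners. A fall of the size described for CENPW did so too, but CENPW was chosen for that size, which is therefore no independent yardstick. In the plot of levels by library, both SETD2 siRNA points lay below all other points for CENPW, which was chosen for that pattern, and for no partner. Those of CENPT, CENPC, CENPI and CENPH lay below both scramble points but not below all hnRNP L siRNA points. This count is read against all tested genes below.

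**Figure D1:**
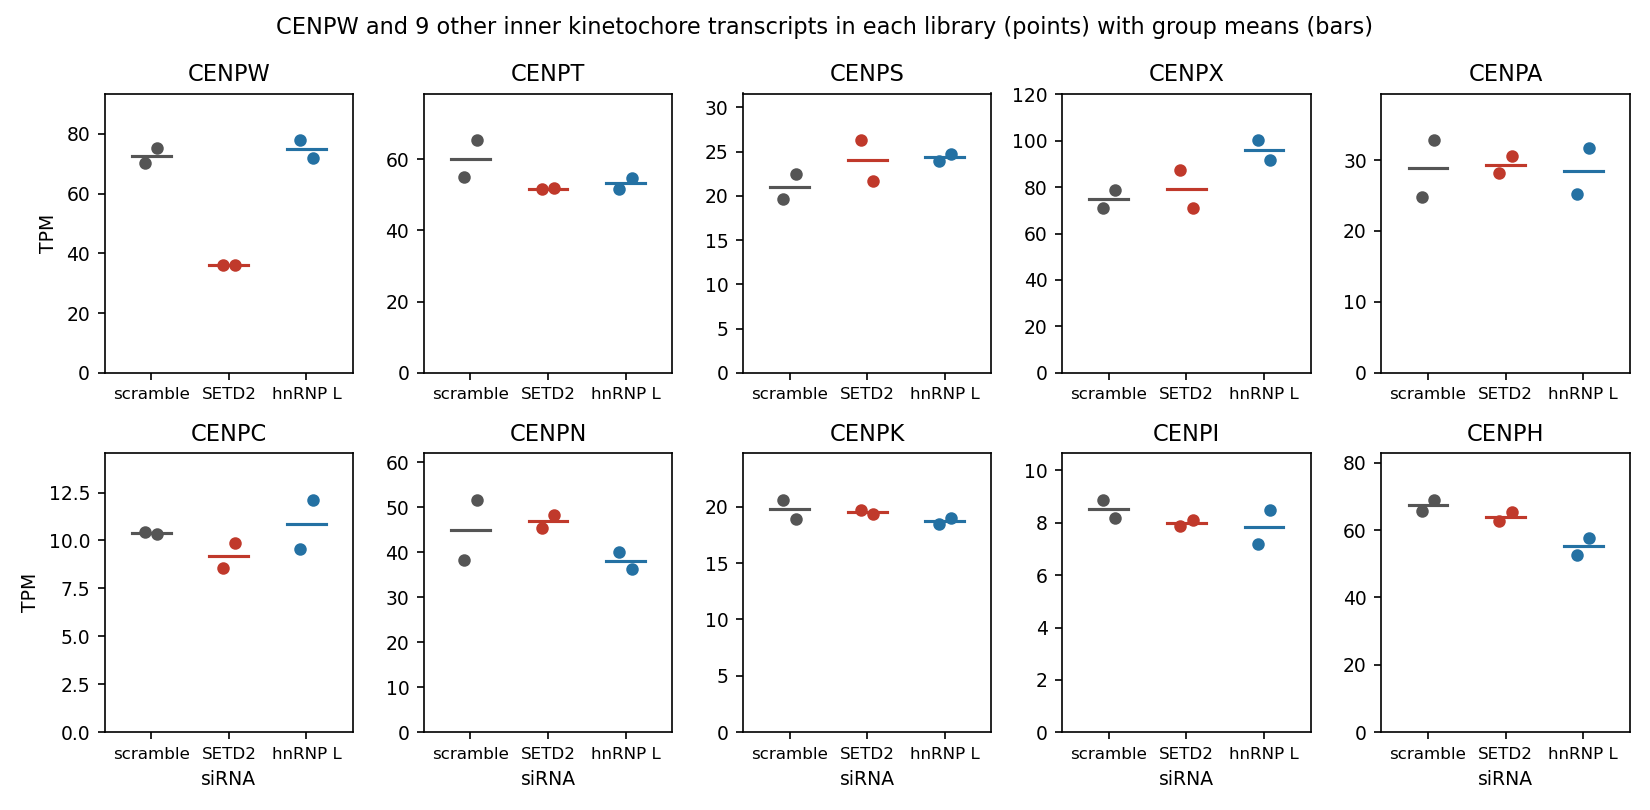
TPM of the 10 members, a panel per gene, with a point for each of the 2 libraries per siRNA and a bar at their mean. CENPW lay at 36.11 and 36.02 TPM in the SETD2-depleted libraries against 70.2 to 77.9 TPM in the other 4 libraries, and the partners kept to narrower ranges.

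CENPT (ENSG00000102901, chr16:67828157-67847811, minus strand), which forms the histone-fold pair with CENP-W and carries the tail that recruits the outer kinetochore, was at 54.9 and 65.3 TPM in the scramble libraries. It was at 51.5 and 51.9 TPM in the SETD2-depleted libraries and at 51.6 and 54.8 TPM in the hnRNP L-depleted libraries. All 4 libraries of the depleted cells were below both scramble libraries, by a margin smaller than the distance between the scramble libraries themselves. The log2 fold change upon SETD2 depletion was -0.21 ± 0.111 (SE, n = 2), with a 95% interval from -0.46 to 0.04 and a limma adjusted p of 0.446. Thus the direct partner of CENP-W had the lowest fitted value of the 9, and this value did not pass the test.

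CENPS (ENSG00000175279, chr1:10430433-10442808, plus strand) and CENPX (ENSG00000169689, chr17:82018702-82024107, minus strand) encode the other histone-fold pair. CENPS was at 19.7 and 22.4 TPM in the scramble libraries, 26.3 and 21.7 TPM in the SETD2-depleted libraries and 23.96 and 24.7 TPM in the hnRNP L-depleted libraries. The SETD2 siRNA libraries overlapped the scramble libraries, and the log2 fold change of 0.18 ± 0.126 had a limma adjusted p of 0.554. CENPX, the most abundant of the 10 mRNAs in each group by mean TPM, was at 71.1 and 78.7 TPM in the scramble libraries and 87.3 and 71.2 TPM in the SETD2-depleted libraries. Its values with hnRNP L siRNA, 100.4 and 91.9 TPM, were above those of the other 4 libraries. The log2 fold change of CENPX was 0.08 ± 0.122 upon SETD2 depletion (limma adjusted p of 0.823). Upon hnRNP L depletion it was 0.36 ± 0.122, with a 95% interval from 0.08 to 0.64, an unadjusted p of 0.0173 and a limma adjusted p of 0.0951, so CENPX was not called. CENPS read-through transcripts are annotated as a gene of their own, CENPS-CORT, which shares 1136 exon bases with CENPS on the same strand, so the division of reads between these genes is an estimate. CENPS-CORT was at 4.96 and 4.79 TPM in the scramble libraries, 3.83 and 6.30 TPM in the SETD2-depleted libraries and 7.09 and 8.09 TPM in the hnRNP L-depleted libraries. Its values with hnRNP L siRNA were above the rest, with a log2 fold change of 0.59 and a limma adjusted p of 0.0995. CENPS-CORT passed the thresholds when only protein-coding and lncRNA genes were tested, under quantile normalization and with a replicate block of crossed numbers that was added after seeing the data, and in none of the other alternatives.

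CENPA (ENSG00000115163, chr2:26764289-26801067, plus strand), the histone H3 variant that marks the centromere, was at 24.8 and 32.8 TPM in the scramble libraries, 28.1 and 30.6 TPM in the SETD2-depleted libraries and 25.2 and 31.7 TPM in the hnRNP L-depleted libraries. The scramble libraries alone spanned the values of all other libraries. Its log2 fold change was 0.04 ± 0.158 upon SETD2 depletion, with a 95% interval from -0.32 to 0.40 (limma adjusted p of 0.940), the largest standard error of the 9 partners. CENPC (ENSG00000145241, chr4:67468762-67545503, minus strand), which bridges the CENP-A nucleosome and the outer kinetochore, was at 10.4 and 10.3 TPM in the scramble libraries, 8.54 and 9.88 TPM in the SETD2-depleted libraries and 9.56 and 12.1 TPM in the hnRNP L-depleted libraries. The SETD2 siRNA libraries were below the scramble libraries, and the log2 fold change of -0.17 had a 95% interval from -0.49 to 0.16 and a limma adjusted p of 0.645. CENPN (ENSG00000166451, chr16:81006552-81033114, plus strand), the other reader of the CENP-A nucleosome, was at 38.2 and 51.7 TPM in the scramble libraries, 45.4 and 48.4 TPM in the SETD2-depleted libraries and 40.0 and 36.3 TPM in the hnRNP L-depleted libraries. The log2 fold change of CENPN was 0.08 upon SETD2 depletion (limma adjusted p of 0.854), and both values lay between those of the scramble libraries. CENPA, CENPN and CENPC carry the CHR letters shown above. None of these 3 genes was called with SETD2 siRNA, where 0.104% of all tested genes were called.

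CENPH (ENSG00000153044, chr5:69189574-69210357, plus strand), CENPI (ENSG00000102384, chrX:101098188-101166126, plus strand) and CENPK (ENSG00000123219, chr5:65517766-65563168, minus strand) encode subunits of the same subcomplex of the network. CENPH was at 65.6 and 69.0 TPM in the scramble libraries, 62.7 and 65.3 TPM in the SETD2-depleted libraries and 52.7 and 57.6 TPM in the hnRNP L-depleted libraries. The hnRNP L siRNA libraries were the lowest 2 of the 6, and the SETD2 siRNA libraries lay just under the scramble libraries. The log2 fold change of CENPH was -0.07 upon SETD2 depletion (limma adjusted p of 0.782). Upon hnRNP L depletion it was -0.29 ± 0.0979, with a 95% interval from -0.51 to -0.06, an unadjusted p of 0.0175 and a limma adjusted p of 0.0956. CENPI, the scarcest of the 10 mRNAs, was at 8.88 and 8.18 TPM in the scramble libraries, 7.88 and 8.09 TPM in the SETD2-depleted libraries and 7.20 and 8.49 TPM in the hnRNP L-depleted libraries. CENPK was at 20.6 and 18.9 TPM in the scramble libraries, 19.7 and 19.3 TPM in the SETD2-depleted libraries and 18.5 and 19.0 TPM in the hnRNP L-depleted libraries. CENPK varied least of all members, 1.12-fold from its lowest to its highest library, against 2.16-fold for CENPW and 1.43-fold for CENPN, the partner that varied most. The log2 fold changes of CENPI and CENPK upon SETD2 depletion were -0.09 and -0.02, with limma adjusted p of 0.801 and 0.959.

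**Figure D2:**
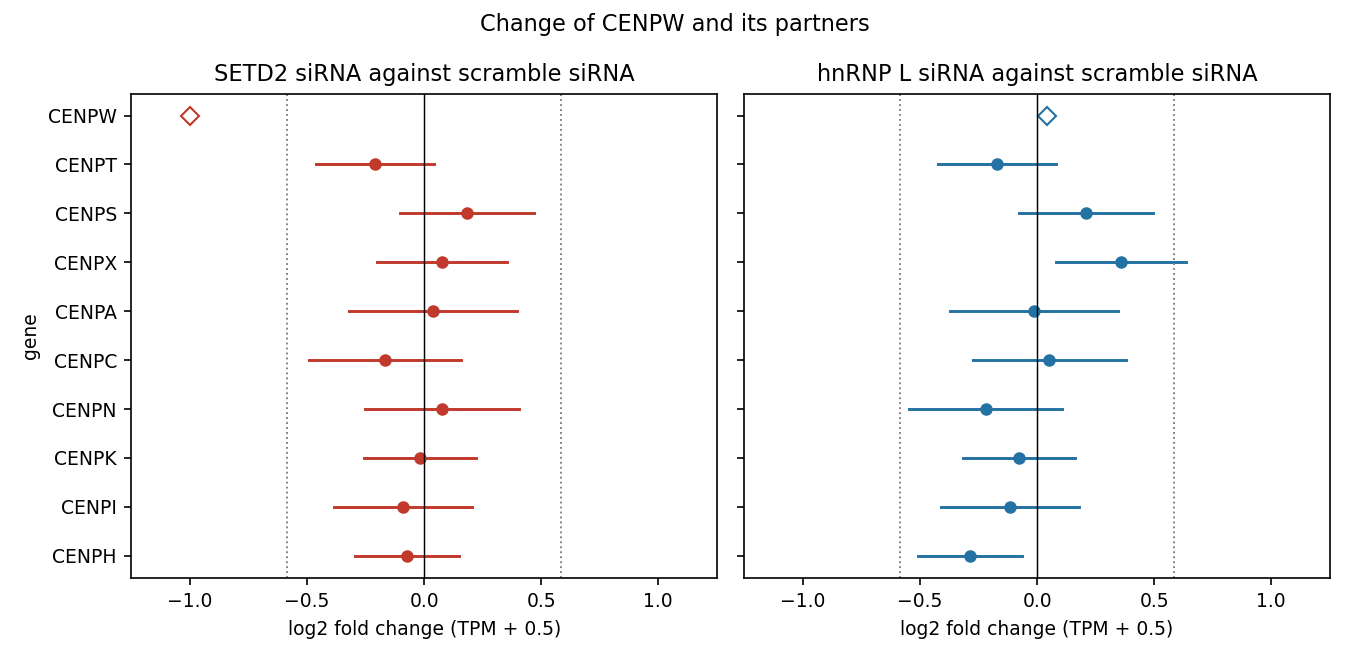
Log2 fold change of each member in the SETD2 and hnRNP L contrasts against scramble siRNA, with 95% intervals from limma for the 9 partners, an open diamond without an interval for CENPW, whose values chose it, and dotted lines at a fold change of 1.5. CENPW lay at -0.999 with SETD2 siRNA, and the intervals of the partners reached no lower than -0.49 in that contrast.

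The number of members whose libraries did not overlap between groups was read against all tested genes, since non-overlap of 2 against 2 libraries is common. With SETD2 siRNA, CENPT, CENPC, CENPI and CENPH were below both scramble libraries and 0 partners were above them. These 4 were 44.4% of the partners, while 20.6% of all tested genes were lower without overlap, 22.9% were higher and 43.5% did not overlap in either direction. Each of these 4 genes had a fitted fall of 0.21 or less on the log2 scale and none passed the test. With hnRNP L siRNA, CENPT and CENPH were lower and CENPS and CENPX were higher without overlap, while 37.8% of all tested genes were lower without overlap, 18.8% were higher and 56.6% did not overlap in either direction. In the direct contrast CENPX was higher, and CENPN, CENPK and CENPH were lower, with hnRNP L siRNA than with SETD2 siRNA, against 18.6% higher, 41.2% lower and 59.8% in either direction over all tested genes. In each of the 3 contrasts 4 of the 9 partners did not overlap.

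The siRNA against hnRNP L changed 6.76% of the tested genes, and 0 of the 9 partners were among them. An unadjusted limma p under 0.05 was reached by CENPX and CENPH, against 28.4% of all tested genes. The log2 fold changes of the partners ranged from -0.29 to 0.36 around a median of -0.08, against -0.08 over all tested genes, with 6 fitted lower and 3 fitted higher. The directions of CENPA and CENPK turned under median-ratio scaling and quantile normalization, and that of CENPI turned under quantile normalization. The 95% intervals reached from -0.55 (CENPN) to 0.64 (CENPX). This contrast and that of SETD2 siRNA share the scramble libraries, so their values are not independent of each other.

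The depletions were then compared with each other. In this contrast 6.84% of the tested genes were called, and again 0 of the 9 partners. CENPX had an unadjusted limma p of 0.0472 and an adjusted p of 0.169, with a log2 difference of 0.28 in the direction of hnRNP L siRNA, and 28.5% of all tested genes had an unadjusted p under 0.05. CENPN had the lowest value, -0.30, with a limma adjusted p of 0.219. The CENPW libraries of the depletions differed by 1.04 on the log2 scale, higher with hnRNP L siRNA, a value that the choice of CENPW implies.

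TPM are scaled per length, so levels could also be ordered across genes. With scramble siRNA the order by mean TPM was CENPX, CENPW, CENPH, CENPT, CENPN, CENPA, CENPS, CENPK, CENPC and CENPI. The neighbours CENPX and CENPW overlapped between libraries, as did CENPS and CENPK, and the other neighbours did not. With SETD2 siRNA CENPW stood at rank 5, after CENPX, CENPH, CENPT and CENPN, the order of the 9 partners was the same, and the libraries of no neighbours overlapped. With hnRNP L siRNA the order was that of the scramble libraries, and here CENPH and CENPT overlapped. The balance between CENPW and its partners was therefore described by the ratio of their TPM within each library. The ratio of CENPW to CENPT was 1.28 and 1.15 with scramble siRNA, 0.701 and 0.694 with SETD2 siRNA and 1.51 and 1.31 with hnRNP L siRNA. The ratio turned from more CENPW than CENPT mRNA to less in both SETD2 siRNA libraries, while the other 4 libraries held more CENPW. The mean ratio of CENPW to CENPH moved from 1.08 to 0.564 with SETD2 siRNA, that to CENPX from 0.971 to 0.46 and that to CENPN from 1.64 to 0.77. For 9 of 9 partners the ratio was lower in both SETD2 siRNA libraries than in every other library, a pattern that follows from the fall of CENPW and is not 9 separate observations.

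**Figure D3:**
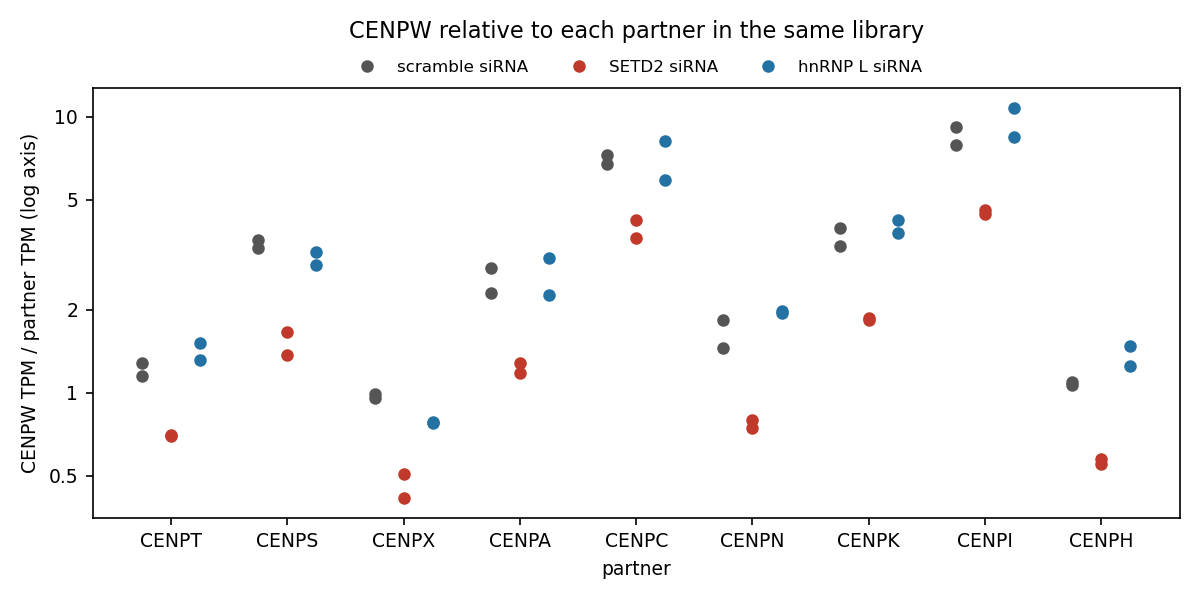
Ratio of CENPW TPM to the TPM of each partner in the same library, on a log axis, with a point per library. For each partner the 2 SETD2 siRNA points lay below the 4 others, as for CENPT at 0.701 and 0.694 against 1.15 to 1.51.

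To place the members in their pathway, 71 further genes of the kinetochore, of CENP-A deposition, of the Fanconi anaemia core complex and of the cell cycle were listed, of which 70 were tested. FANCF, at 0.31 to 0.60 TPM, was the one below the filter. With SETD2 siRNA 0 of the 70 were called, against 0.104% of all tested genes, and 11 had an unadjusted limma p under 0.05, as 13.1% of all tested genes had. The other 7 subunits of the inner network ranged from -0.27 (CENPP) to 0.12 (CENPU), with a median log2 fold change of -0.00. Of these, 4 were fitted lower and 3 higher. ITGB3BP, 1 of the 7, was at 71.14 and 74.94 TPM in the SETD2-depleted libraries and at 83.05 to 89.56 TPM in the others. Its log2 fold change upon SETD2 depletion was -0.24, at a limma adjusted p of 0.336. It was not called and is named here after its values were seen. The 4 genes of CENP-A deposition had a median of -0.14, and the highest was MIS18A, a subunit of the complex that licenses centromeres for new CENP-A, at 0.10. The 10 genes of the outer, microtubule-binding layer ranged from -0.24 for NUF2, a subunit of the NDC80 complex, to 0.21 for ZWINT, with a median of 0.07. The 13 genes of the spindle checkpoint, the passenger complex and mitotic motors ranged from -0.18 (BUB1B) to 0.18 (MAD1L1), with a median of -0.01. The smallest limma adjusted p was 0.336 among the inner subunits, 0.437 for CENP-A deposition, 0.417 for the outer layer and 0.521 for the checkpoint group. None of the genes on these 4 lists passed the test upon SETD2 depletion.

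**Figure D4:**
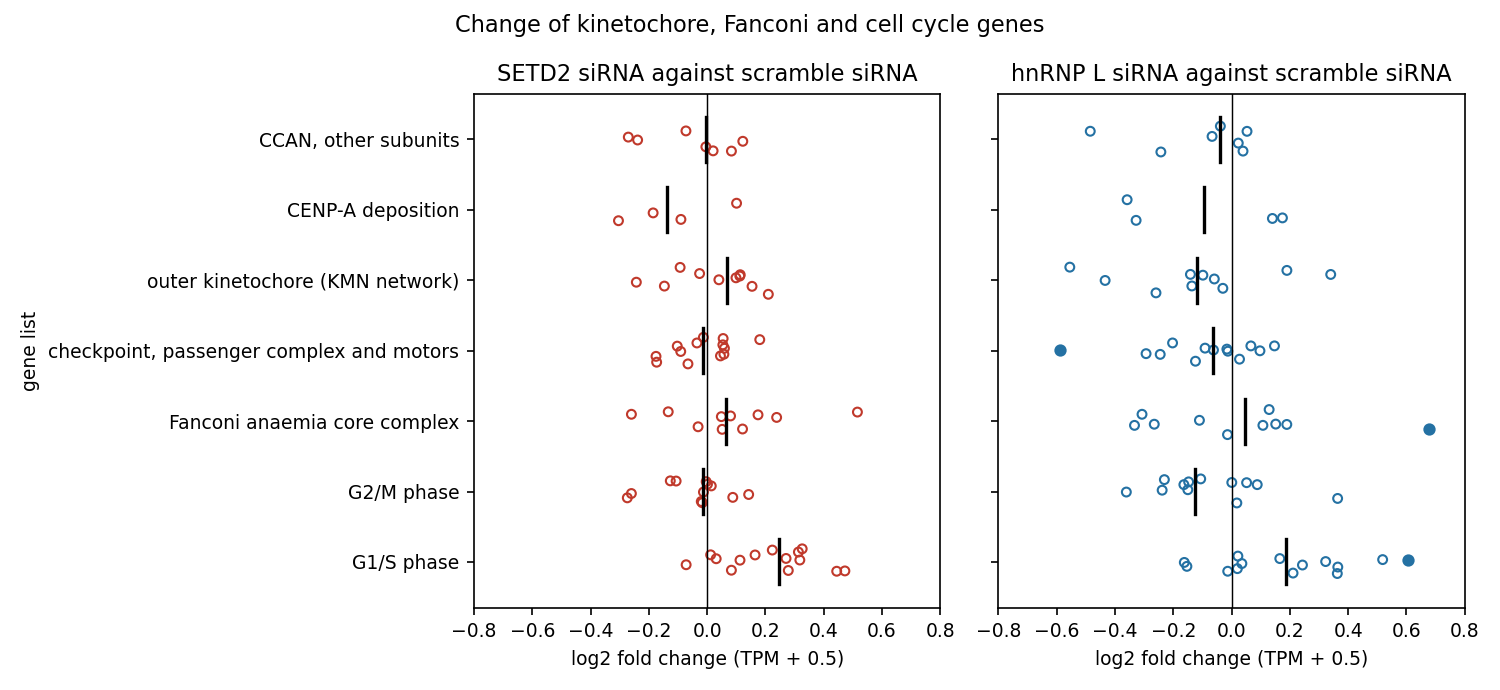
Log2 fold changes of the genes on each list in the SETD2 and hnRNP L contrasts against scramble siRNA, with a point per gene, filled where the gene was called, and a bar at the median of each list. The 14 G1/S genes lay at a median of 0.25 with SETD2 siRNA and 0.19 with hnRNP L siRNA, and the other lists lay between -0.14 and 0.07 in both contrasts.

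Upon hnRNP L depletion 3 of the 70 listed genes were called, with 6.76% of all tested genes called, and 18 had an unadjusted limma p under 0.05, as 28.4% of all tested genes had. SGO1, the shugoshin that protects cohesion at centromeres until anaphase, was at 17.5 and 18.3 TPM in the scramble libraries, 16.3 and 15.4 TPM in the SETD2-depleted libraries and 11.2 and 12.4 TPM in the hnRNP L-depleted libraries. SGO1 fell by 0.59 ± 0.111 on the log2 scale upon hnRNP L depletion, at a limma adjusted p of 0.015, close to the fold cut-off, and it was not called with a pseudocount of 1, without the filter, under either scaling, with the replicate block or with any library left out. SPC25, a subunit of the NDC80 complex of the outer layer, was at 30.4 and 31.9 TPM in the scramble libraries, 31.6 and 29.6 TPM in the SETD2-depleted libraries and 20.6 and 21.5 TPM in the hnRNP L-depleted libraries. Both hnRNP L siRNA libraries were the lowest, and the log2 fold change of SPC25, -0.56 at a limma adjusted p of 0.0133, stayed under the fold cut-off, so that it is named here for its adjusted p after its values were seen. CDT1, which licenses replication origins, rose by 0.61 ± 0.106 upon hnRNP L depletion at a limma adjusted p of 0.012, a call that was lost with no filter and without scramble siRNA replicate 1 or hnRNP L siRNA replicate 1 or 2. It was at 69.2 and 81.9 TPM in the scramble libraries, 91.5 and 91.2 TPM in the SETD2-depleted libraries and 116.2 and 113.4 TPM in the hnRNP L-depleted libraries.

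CENP-S and CENP-X also bind FANCM, so the Fanconi anaemia core complex was examined. FANCA, a core subunit, was at 36.6 and 40.0 TPM in the scramble libraries, 38.4 and 36.5 TPM in the SETD2-depleted libraries and 60.6 and 62.5 TPM in the hnRNP L-depleted libraries. FANCA rose by 0.68 ± 0.099 on the log2 scale upon hnRNP L depletion (limma adjusted p of 0.00638) and was 0.71 higher with hnRNP L siRNA than with SETD2 siRNA (limma adjusted p of 0.00559), without overlap of libraries in either case. FAAP20, a small subunit that binds ubiquitin, was at 39.9 and 46.8 TPM in the scramble libraries, 68.5 and 56.2 TPM in the SETD2-depleted libraries and 33.8 and 34.6 TPM in the hnRNP L-depleted libraries. It was the highest of the tested core complex genes upon SETD2 depletion, at a log2 fold change of 0.52 ± 0.127 and a limma adjusted p of 0.194, and the lowest was FANCB at -0.26. In the direct contrast FAAP20 was 0.85 lower with hnRNP L siRNA than with SETD2 siRNA (limma adjusted p of 0.00731). The FANCA call against scramble siRNA was lost without hnRNP L siRNA replicate 1 or 2, its direct call was lost without any 1 of the 4 libraries, and the FAAP20 call was lost without SETD2 siRNA replicate 2 or hnRNP L siRNA replicate 1 or 2 and with no filter. The median log2 fold change of the 10 tested core complex genes was 0.07 with SETD2 siRNA and 0.05 with hnRNP L siRNA.

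Since transcription of centromere genes varies over the cell cycle, lists of cell cycle genes were measured beside the members. The 12 G2/M genes, which peak before mitosis as CENP-A mRNA does, had a median log2 fold change of -0.01 with SETD2 siRNA, against 0.01 over all tested genes, and -0.13 with hnRNP L siRNA, against -0.08. Under median-ratio scaling these medians were -0.03 and -0.03, and under quantile normalization -0.10 and -0.10. With SETD2 siRNA 8 of the 12 were fitted lower, and 10 of 12 under either scaling. With hnRNP L siRNA 7 of 12 were fitted lower, in the main fit and under either scaling. In the SETD2 contrast they ranged from -0.27 for HMMR, a spindle-associated protein, to 0.14 for CDK1, the mitotic kinase, and 0 of 12 were called. HMMR was at 94.5 and 100.9 TPM in the scramble libraries, 76.1 and 85.5 TPM in the SETD2-depleted libraries and 112.3 and 141.0 TPM in the hnRNP L-depleted libraries. In the direct contrast HMMR was 0.64 higher with hnRNP L siRNA (limma adjusted p of 0.0176), and this call was lost with each library left out, with no filter and with no variance trend. Of the 14 G1/S genes, 13 were fitted higher with SETD2 siRNA, at a median of 0.25 against 0.01 over all tested genes. Above both scramble libraries were 9 of the 14, a larger share than the 22.9% of all tested genes. The values ran from -0.07 for CCNE2, a cyclin of S-phase entry, to 0.47 ± 0.111 for MCM2, a subunit of the replicative helicase, at a limma adjusted p of 0.186. An unadjusted limma p under 0.05 was reached by 8 of the 14, against 13.1% of all tested genes. The smallest limma adjusted p was 0.178, and 0 were called, against 0.104% of all tested genes. With hnRNP L siRNA 11 of 14 were fitted higher, at a median of 0.19 against -0.08 over all tested genes. Here 8 of the 14 were above both scramble libraries and 2 below, against 18.8% and 37.8% of all tested genes. An unadjusted limma p under 0.05 was reached by 6 of the 14, against 28.4% of all tested genes. CDT1 alone was called, against 6.76% of all tested genes. The number fitted higher was 12 of 14 under median-ratio scaling and 10 of 14 under quantile normalization, with SETD2 siRNA and with hnRNP L siRNA. The G1/S medians were above 0 in both depletions. The part of cell cycle distribution in the level of CENPW was not tested.

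The tested genes nearest to CENPW on chromosome 6 were compared to see whether the locus moved together. On the upstream side lie TRMT11, which encodes a tRNA methyltransferase subunit, 136297 bases away, and then HINT3 and NCOA7. On the downstream side lie the pseudogene PRELID1P1, 294612 bases away, RNF146 and ECHDC1. TRMT11 was at 39.3 and 38.3 TPM in the scramble libraries, 30.8 and 34.8 TPM in the SETD2-depleted libraries and 44.8 and 45.5 TPM in the hnRNP L-depleted libraries. The SETD2 siRNA libraries were the lowest and the hnRNP L siRNA libraries the highest, as for no other neighbour. The log2 fold change of TRMT11 was -0.24 ± 0.102 upon SETD2 depletion, at a limma adjusted p of 0.366, and 0.21 upon hnRNP L depletion, at a limma adjusted p of 0.208. In the direct contrast TRMT11 was 0.45 higher with hnRNP L siRNA, at a limma adjusted p of 0.0273, below the fold cut-off. The other 5 neighbours lay between 0.08 and 0.22 upon SETD2 depletion, and 0 of them were called in that contrast. NCOA7, a nuclear receptor coactivator, was called in the direct contrast, where it was 0.61 lower with hnRNP L siRNA (limma adjusted p of 0.0441). It was at 8.08 and 9.29 TPM in the SETD2-depleted libraries and 4.89 and 6.22 TPM in the hnRNP L-depleted libraries, opposite in direction to CENPW, and the call was lost in 10 of 14 alternatives, including each library left out and either scaling.

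The 5 protein-coding genes whose profile was nearest to that of CENPW were named by the Euclidean distance between log2 values over the 6 libraries, after the scramble mean of each gene was subtracted, among 12801 genes. They were AC005832.4, PPP1R3E, PIK3AP1, OVGP1 and ATRNL1, at distances of 0.327, 0.484, 0.487, 0.512 and 0.528. PIK3AP1 was at 0.24 to 0.83 TPM, close to the filter of 0.5 TPM and to the pseudocount of 0.5. AC005832.4 was at 14.2 and 15.3 TPM in the scramble libraries, 6.38 and 8.78 TPM in the SETD2-depleted libraries and 15.8 and 15.1 TPM in the hnRNP L-depleted libraries. PPP1R3E, a regulatory subunit of protein phosphatase, was at 19.6 and 15.5, 10.5 and 9.93, and 17.4 and 17.1 TPM in the same order. None of these 5 is a centromere gene, and their likeness is a description over 6 libraries. The partner nearest to CENPW was CENPT, at a distance of 1.17 and rank 1067, followed by CENPC at 1.23 and rank 1543, and CENPS was the farthest at 1.70 and rank 9557.

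Some members overlap other genes, and whether reads were counted by strand is not given in the sources used here. CENPW shared 0 exon bases with AL356534.1, the gene on its opposite strand, which was at 0.03 TPM or less in all 6 libraries. CENPA shared 138 exon bases on the same strand with SLC35F6, and CENPN shared 716 with AC092718.4, at 9.62 to 14.8 TPM. SLC35F6 was at 9.02 and 8.07 TPM in the scramble libraries and 5.76 and 4.90 TPM in the hnRNP L-depleted libraries, and its fall by 0.64 on the log2 scale was called (limma adjusted p of 0.023), whereas CENPA, which was more abundant, was not. The SLC35F6 call was lost under either scaling, with no filter, in a fit of 2 groups, with the replicate block and with any library left out. CENPT shares 596, 380 and 166 exon bases with TSNAXIP1, THAP11 and NUTF2 on the opposite strand. NUTF2 was at 262.36 to 348.55 TPM, above CENPT in each library, and higher in both depletions than in the scramble libraries. Whether its reads entered the CENPT value was not tested. CENPX shares 43 exon bases with LRRC45 on the opposite strand, and CENPN lies opposite CMC2. CENPC, CENPK, CENPI and CENPH overlapped no other gene. The pseudogenes CENPIP1 and CENPCP1 were at 0.03 and 0.09 TPM at most.

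The markers listed for the line were present, with VIM at 649.5 to 940.8 TPM, KRT8 at 31.1 to 43.4 TPM, PAX2 at 1.65 to 2.79 TPM, KRT18 at 59.7 to 77.2 TPM and the neurofilament gene NEFM, known to be expressed in this line, at 183.7 to 454.4 TPM. PTPRC, the leukocyte marker, was listed at 0 in all 6 libraries, and ALB, PECAM1 and COL1A2 were at 0.40 TPM or less, while COL1A1 was at 2.83 to 5.17 TPM. Replicate libraries correlated across genes, which are not themselves replicates, at a Pearson's r of 0.9862 to 0.9877. For a single gene, the smallest two-sided p of an exact permutation test with 2 libraries per group is 0.333, so the tests above rest on the spread that limma shares across genes.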

How the data were processed

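The RNA-seq of 293T cells was analysed, with 2 libraries per siRNA (scramble, SETD2, hnRNP L) grouped by the sample labels. ChIP-seq was not analysed here. The authors aligned reads to hg38 with STAR 2.6.1c and deposited TPM per gene, made by the authors with RSEM 1.3.0. TPM hold no read counts, so the reads behind a value cannot be read from the table and no counting interval is given. The study lists read pairs per library, which were not used here. The methods describe the replicates as biologically independent.

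The 10 genes, the further lists and the genes to name were chosen with earlier results of these data known. Named are the 10 members, the targeted genes, called genes and extremes of each list, 3 tested neighbours on each side of CENPW, the 5 nearest profiles and overlapping genes. 1 gene that this rule includes is not reported here. Values were transformed to log2(TPM + 0.5), so the change of low genes is understated. Of 58884 genes, the 16300 whose mean was at least 0.5 TPM were tested with limma 3.58.1 (R 4.3.3), fitting a mean for each siRNA to all 6 libraries, a variance trend (prior degrees of freedom 5.74) and Benjamini-Hochberg adjustment, and called where the adjusted p was under 0.05 and the fold change exceeded 1.5. Loci came from GENCODE release 44, which matched 58472 genes by ID. Of the tested genes 93 had no biotype, so all biotypes were tested. Python 3.11.15, pandas 2.3.3, NumPy 2.4.6, SciPy 1.17.1 and Matplotlib 3.10.9 were used, and the fit was tested on simulated data. Each choice was varied in turn: the pseudocount (1 or 0.1), the filter (none, or a mean of 1 TPM), the biotypes (protein-coding and lncRNA), the scaling (median-ratio or quantile), a fit of 2 groups, no variance trend, no fold cut-off, each library left out and, for hnRNP L siRNA, replicate blocks.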

Additional observations from a re-analysis of the deposited data

Results flagged for a closer look

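The fitted effects of the siRNAs against SETD2 and hnRNP L differed in the direct limma contrast for the following genes, given as hnRNP L siRNA minus SETD2 siRNA on the log2 scale. CENPW differed by 1.04, a value for which it was chosen and which is a description here. The targeted genes differed by -3.89 (HNRNPL) and 1.12 (SETD2). Among the listed genes, FAAP20 differed by -0.849, FANCA by 0.709 and HMMR by 0.638, each past the thresholds of the direct contrast.

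FANCC, a core subunit of the Fanconi anaemia complex, was at 7.33 and 6.89 TPM in the scramble libraries, 7.51 and 8.70 TPM in the SETD2-depleted libraries and 5.55 and 6.12 TPM in the hnRNP L-depleted libraries. Both SETD2 siRNA libraries lay above and both hnRNP L siRNA libraries below the scramble libraries. The difference of -0.44 missed the limma threshold in the direct contrast, with an adjusted p of 0.068.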

How the results depend on the processing

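None of the 9 partners was called in any of 14 alternatives for the SETD2 contrast, 16 for the hnRNP L contrast and 14 for the direct contrast, with values from -0.34 to 0.32, -0.44 to 0.45 and -0.37 to 0.43. CENPW with SETD2 siRNA lay between -1.05 and -0.951 in 14 alternatives. Whether CENPW passed the thresholds is not a test, because it was chosen for this fall in these same libraries. It did not pass with no filter, with no variance trend, without scramble siRNA replicate 1 or without SETD2 siRNA replicate 2 or 3. Under median-ratio scaling CENPW was at 0.14 with hnRNP L siRNA and 1.15 in the direct contrast, the latter 1.13 under quantile normalization.

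The 17 genes called with SETD2 siRNA became 1 with no filter, 27 at a mean TPM of at least 1, 60 among protein-coding and lncRNA genes and 8 to 38 with a library left out (8 without scramble siRNA replicate 1, 38 without replicate 2). The 1102 called with hnRNP L siRNA became 235 with no filter, 1826 with no fold cut-off and 172 to 821 with a library left out (363 without scramble siRNA replicate 1, 172 and 227 without hnRNP L siRNA replicates 1 and 2). The 1115 of the direct contrast became 186, 1753 and 127 to 230. Leaving a library out leaves 1 in its arm, which is assumed to vary like the other groups. Higher and lower calls went from 286 and 816 to 420 and 528 under median-ratio scaling and to 424 and 482 under quantile normalization with hnRNP L siRNA, and from 350 and 765 to 457 and 460 and to 442 and 458 in the direct contrast.

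Scramble and hnRNP L siRNA share the replicate numbers 1 and 2, and same-numbered libraries did not deviate together across genes (r = -0.1256). With the replicate block, 715 genes were called and no partner call changed. With crossed numbers, added after seeing the data, 1406 were called. SETD2 and scramble siRNA share number 2 alone, so a block would take SETD2 siRNA replicate 3 out of their contrast, and none was fitted.

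Listed genes called with hnRNP L siRNA became 1 in the outer kinetochore with no fold cut-off (0 to 1 with a library left out), 0 in the checkpoint group with a pseudocount of 1, no filter, either scaling, the replicate block or a library left out, 0 to 1 in the Fanconi group with a library left out, and 0 with no filter, 2 under median-ratio scaling, 3 with no fold cut-off and 0 to 1 with a library left out among G1/S genes. In the direct contrast, 1 outer kinetochore and 1 checkpoint gene were called with no fold cut-off, 1 Fanconi gene with no filter and 0 to 1 with a library left out, 0 G2/M genes with no filter, no variance trend or a library left out, and 1 G1/S gene under median-ratio scaling or no fold cut-off.

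The following fitted values, none of them called, turned sign, and the cause was not tested. Not all were near 0 in the main fit with SETD2 siRNA, where FANCB was at -0.26, BUB1B at -0.18 and MAD1L1 at 0.18. With hnRNP L siRNA, CENPA was at 0.0785 and 0.08 and CENPK at 0.0158 and 0.0252 under median-ratio scaling and quantile normalization, and CENPI at 0.0158 under the latter. In the direct contrast the same settings gave 0.0554 and 0.0599 for CENPA, 0.0491 and 0.059 for CENPK and 0.0759 and 0.0881 for CENPI. HNRNPL with SETD2 siRNA was at -0.0939 under quantile normalization. With a library left out, values with SETD2 siRNA ranged from -0.0699 to 0.221 (CENPX), -0.159 to 0.237 (CENPA), -0.141 to 0.292 (CENPN), -0.0776 to 0.042 (CENPK), -0.178 to 0.244 (HNRNPL), -0.0941 to 0.0316 (FANCA), -0.409 to 0.0581 (BUB1B), -0.525 to 0.00543 (FANCB), -0.21 to 0.0659 (CCNE2), -0.0111 to 0.213 (MIS18A) and -0.00483 to 0.366 (MAD1L1). With hnRNP L siRNA they ranged from -0.213 to 0.183 (CENPA) and -0.112 to 0.216 (CENPC), and in the direct contrast from -0.00401 to 0.0823 (CENPT), -0.11 to 0.161 (CENPS), -0.216 to 0.109 (CENPA) and -0.14 to 0.0835 (CENPI).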
